A study of Mus musculus with 56 samples.

Results

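Hearts of day-fed mice taken at ZT16, in the dark and early in the daily fast, were compared with hearts of day-fed mice taken at ZT4, in the light while food was present. Zeitgeber time (ZT) counts hours from lights on. The comparison rests on 8 RNA-seq libraries, 4 at each time, out of 56 in the series, and they were chosen by their labels alone. All mice were female C57BL/6J, an inbred laboratory strain, were 9 weeks old and were kept on a cycle of 12 h light and 12 h dark. Under daytime-restricted feeding (DRF) the mice had been fed in the light phase for 7 days. Under nighttime-restricted feeding (NRF), the reference regimen, mice of the same strain, sex and age had been fed in the dark phase for 7 days, and the 8 NRF libraries of ZT4 and ZT16 serve here as the comparison group. The mice were group housed, no genotype other than the strain is given, and 7 days is a short exposure to the regimen. The labels do not say that each library came from its own animal, so the p-values measure the spread between libraries. In the main tests of single genes that spread is pooled over the 14 groups of the series.

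The circadian clock of a cell is a transcriptional loop. CLOCK or NPAS2 pairs with BMAL1 (gene Arntl) and switches on the Per and Cry genes, whose proteins turn the pair off, while the nuclear receptors REV-ERB (Nr1d1, Nr1d2) and RORα (Rora) close a second loop on Arntl. In a night-fed mouse darkness, activity and feeding fall together, whereas in a day-fed mouse the dark phase is a time of activity without food. The heart draws mostly on fatty acids during a fast and takes up more glucose after a meal, and insulin, FOXO factors and glucocorticoids are known to set many of the genes involved.

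The level of a gene is given as linear TPM, its share of the transcripts of a library after scaling by gene length. The deposited values are named TPM but follow the logarithm of depth-scaled reads, so read numbers were first worked back from them. Depth per library, in Mreads (reads divided by 1e+06), was 31.9 to 39.2 at ZT4 and 37.2 to 53.4 at ZT16 (exact permutation test, two-sided, p = 0.17). A difference is ZT16 minus ZT4 on the log2(TPM + 1) scale with its standard error, tested with limma, and a gene is called where the Benjamini-Hochberg adjusted p over 13869 tested genes is under 0.05.

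One library went against its label on clock and lipid genes. Over the 76 tested genes of the clock, beta-oxidation and lipid lists, the mean absolute log2 difference of the library labelled DRF ZT4 replicate 1 from the other 3 of its group was 0.495, the seventh smallest of 14 groups, and its nearest group was NRF ZT8 at 0.171. The library labelled NRF ZT8 replicate 1 went the other way, at 0.466 from its own group and 0.173 from DRF ZT4. Of 56 libraries, 42 lay nearest to their own group, among them 6 of the 8 compared here. The other exception among the 8 was ZT16 replicate 1, which lay nearest to NRF ZT16 (0.237, against 0.294 for its own group). Over all 13869 tested genes ZT4 replicate 1 was not the farthest of its group, at 0.227 from the other 3 against 0.236 for replicate 2, and it lay outside the range of the other 7 libraries for 5174 genes, against 5510 for ZT16 replicate 4. ZT4 replicate 1 was kept under its label, and results are given with all 8 libraries and with the 7 that remain without it. A gene is said below to have risen or fallen where it was called in both fits.

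With 8 libraries 2541 genes were called, 18.3% of those tested, of which 384 were higher (2.77%) and 2157 lower (15.6%) at ZT16. Without ZT4 replicate 1 the counts were 2039 genes (14.7%), 372 higher (2.68%) and 1667 lower (12%). In all 1788 genes (12.9%) were called in both fits, 292 higher and 1496 lower (10.8%), and 75 of them differed by at least 1 on the log2 scale. The preponderance of lower genes depends on the scaling. The median difference over all tested genes was -0.09 on the TPM scale with 8 libraries, and 0.00 after median-of-ratios scaling, under which 1059 genes (7.64%) were higher and 1192 (8.59%) lower out of 2251 (16.2%). Without ZT4 replicate 1 that scaling gave 2127 genes (15.3%), 942 higher (6.79%) and 1185 lower (8.54%). A total of 1211 genes (8.73%) held under both scalings and both sets of libraries, 292 higher (2.11%) and 919 lower (6.63%). Since that scaling moved differences upward, a rise could hardly lose its call, and the check bears on the falls alone. Of the 1788 genes, 1623 did not overlap between the groups in the 7 libraries, while over all tested genes 4.72% lay apart upward and 19.2% downward. When the spread was estimated from the compared groups alone, 138 of the 292 and 674 of the 919 were still called with 8 libraries. Without ZT16 replicate 1, 222 of the 292 were called. Other libraries bore on the rises too. The number higher, 384 with 8 libraries, was 326 without ZT16 replicate 1, and 277, 291 and 319 without ZT16 replicates 2, 3 and 4.

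Of the 4 activator genes of the clock, 1 fell at ZT16 in both fits, against 10.8% of all tested genes. Npas2, which encodes a partner of BMAL1, stood at 3.39, 3.11 and 3.45 TPM in ZT4 replicates 2 to 4, 1.34 TPM in ZT4 replicate 1, and 0.799, 0.927, 0.672 and 0.673 TPM in the ZT16 libraries. All ZT16 values lay below all ZT4 values, with a log2 difference of -1.29 ± 0.17 without ZT4 replicate 1 (adjusted p = 8.1e-07) and -1.07 ± 0.18 with it (adjusted p = 2.8e-05). Arntl itself stood at 6.14, 5.75 and 7.15 TPM in ZT4 replicates 2 to 4, 1.94 TPM in ZT4 replicate 1, and 2.47, 3.87, 2.63 and 2.50 TPM in the ZT16 libraries. ZT4 replicate 1 was thus the lowest of all 8 libraries for Arntl, and the call rested on leaving it out (-0.94 ± 0.21, adjusted p = 0.0023, against -0.61 ± 0.23, adjusted p = 0.058, with it). Clock differed by -0.20 ± 0.10 (adjusted p = 0.18) and Arntl2 (-0.04 ± 0.11, adjusted p = 0.87), neither past the threshold.

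Of the 10 repressor genes 3 rose and 2 fell in both fits, against 2.11% and 10.8% of all tested genes. Per2, whose product closes the negative loop, measured 2.53, 3.80 and 2.96 TPM in ZT4 replicates 2 to 4, 5.92 TPM in ZT4 replicate 1, and 19.9, 14.7, 12.1 and 10.7 TPM in the ZT16 libraries. The gene lies at chr1:91415982-91459324 on the minus strand (GRCm38). It had the largest rise among the clock genes, 4.64-fold between the means without ZT4 replicate 1, with a log2 difference of 1.88 ± 0.25 without ZT4 replicate 1 (adjusted p = 8.1e-07) and 1.69 ± 0.24 with it (adjusted p = 2.4e-06). Cry1, the other main repressor to rise, measured 8.63, 9.74 and 9.76 TPM in ZT4 replicates 2 to 4, 5.14 TPM in ZT4 replicate 1, and 17.3, 17.3, 16.7 and 14.4 TPM in the ZT16 libraries, and its groups did not overlap (0.74 ± 0.15, adjusted p = 7.3e-04). Per3 rose by 0.84 ± 0.18 (adjusted p = 0.001) from 2.69, 5.44 and 2.99 TPM in ZT4 replicates 2 to 4 to 9.61, 6.28, 6.99 and 6.09 TPM, and replicate 1 (7.22 TPM) stood within the ZT16 range. In the opposite direction, Nr1d1, which encodes the Arntl repressor REV-ERBα, fell from 82.3, 58.8 and 55.2 TPM in ZT4 replicates 2 to 4 (139 TPM in replicate 1) to 28.4, 15.4, 18.5 and 17.7 TPM at ZT16, with a log2 difference of -1.68 ± 0.28 without ZT4 replicate 1 (adjusted p = 3.8e-05) and -1.95 ± 0.27 with it (adjusted p = 2.4e-06). Bhlhe41, which encodes the E-box repressor DEC2, fell (-0.47 ± 0.13, adjusted p = 0.013).

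Several clock genes had no call and a wide spread within a group. Dbp, a D-box activator and a common clock output, read 37.4, 25.9 and 17.5 TPM in ZT4 replicates 2 to 4, 118 TPM in ZT4 replicate 1, and 55.3, 10.5, 15.98 and 16.2 TPM in the ZT16 libraries, so that one library in each group stood far above the rest (-0.36 ± 0.41, adjusted p = 0.6). Ciart read 2.06, 1.72 and 0.969 TPM in ZT4 replicates 2 to 4, 7.54 TPM in ZT4 replicate 1, and 6.07, 1.10, 1.14 and 0.900 TPM in the ZT16 libraries and showed the same pair of high libraries. Per1, which also responds to glucocorticoids, read 7.45, 6.20 and 7.36 TPM in ZT4 replicates 2 to 4, 13.4 TPM in ZT4 replicate 1, and 29.99, 10.3, 12.5 and 12.5 TPM in the ZT16 libraries, and its difference of 0.99 ± 0.39 did not pass (adjusted p = 0.075), although the 7 libraries did not overlap. Nr1d2 (0.41 ± 0.18), Cry2 (0.21 ± 0.11) and Bhlhe40 (-0.10 ± 0.22) did not pass either. After median-of-ratios scaling without ZT4 replicate 1, Per1, Nr1d2 and Cry2 were called higher (adjusted p = 0.039, 0.043 and 0.019), and with all 8 libraries Cry2 alone of these 3 was (0.03).

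Of the 7 output and loop genes, 2 rose in both fits, against 2.11% of all tested genes. With 8 libraries 4 were higher (2.77% of all tested genes were), and without ZT16 replicate 1 the number was 1, while Dbp was then called lower (-1.37). Rora, an activator of Arntl, measured 4.20, 4.06 and 3.79 TPM in ZT4 replicates 2 to 4, 5.91 TPM in ZT4 replicate 1, and 7.89, 8.19, 7.68 and 6.85 TPM in the ZT16 libraries, with a log2 difference of 0.78 ± 0.10 without ZT4 replicate 1 (adjusted p = 5.6e-07) and 0.67 ± 0.10 with it (adjusted p = 7.8e-06). Tef, a D-box activator related to Dbp, measured 33.6, 40.3 and 30.7 TPM in ZT4 replicates 2 to 4, 53.97 TPM in ZT4 replicate 1, and 71.6, 53.02, 54.2 and 48.7 TPM in the ZT16 libraries (0.68 ± 0.16, adjusted p = 0.0029). The groups did not overlap for Rora in any of the 8 libraries. Nfil3 (0.30 ± 0.23), Hlf (0.40 ± 0.15) and Wee1 (0.32 ± 0.17) were not called without ZT4 replicate 1, although Wee1 was called with it (adjusted p = 0.044), and Hlf was called after median-of-ratios scaling (adjusted p = 0.0086). In all, 8 of the 21 clock genes were called in both fits, against 12.9% of all tested genes, and the same 8 held under both scalings.

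**Figure D1:**
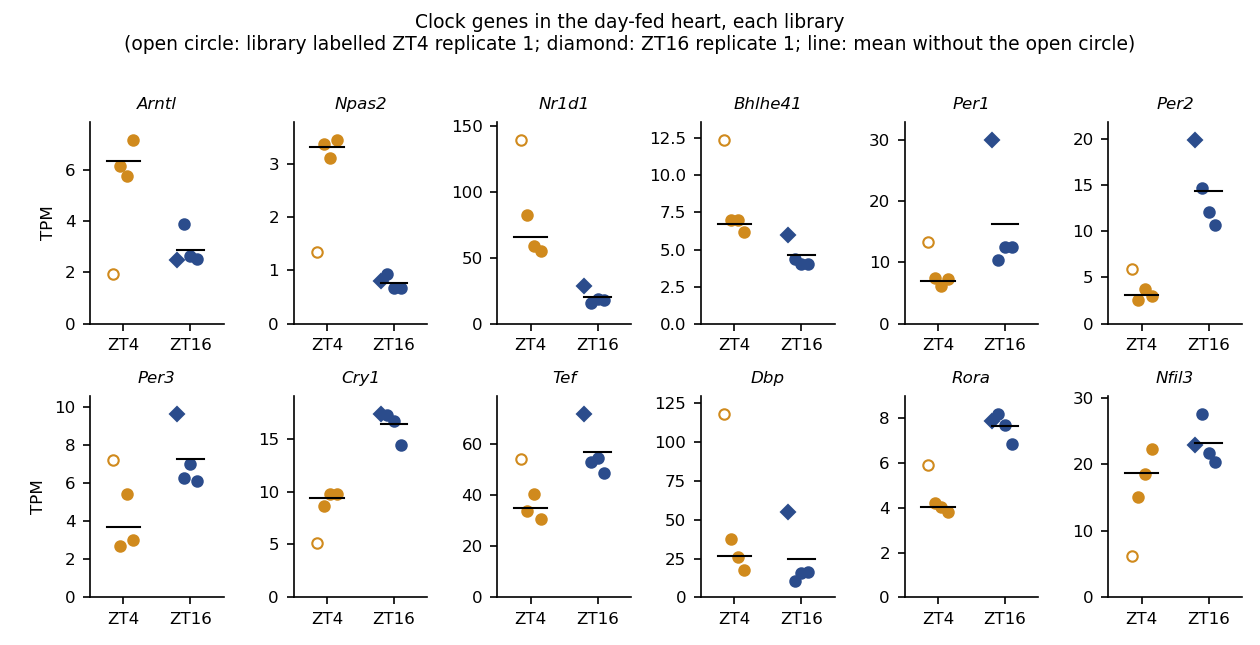
Level of 12 clock genes in each library of the day-fed heart, in TPM on axes that start at 0. Orange points are ZT4 (open circle, the library labelled replicate 1), blue points are ZT16 (diamond, replicate 1), and lines are means without the open circle. Npas2 and Nr1d1 are low and Per2 and Cry1 high in all 4 ZT16 libraries, while Dbp is set by 1 library in each group.

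CLOCK and BMAL1 bind the E-box, the palindrome CACGTG. In the 250 bases before the RefSeq transcription starts (build GRCm38.p6), the E-box was found for 5 of the 17 clock genes that have an entry, while 6.86% of all 27025 genes listed hold it. The stretches of the 5 are shown, read 5′ to 3′ on the strand of the gene with the E-box in capitals, because the genes share this element and yet moved differently.
Cry1, chr10:85185074-85185149, minus strand: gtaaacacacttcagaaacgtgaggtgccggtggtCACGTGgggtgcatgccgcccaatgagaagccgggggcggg
Tef, chr15:81802511-81802586, plus strand: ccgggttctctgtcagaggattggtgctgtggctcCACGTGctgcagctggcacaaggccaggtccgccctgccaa
Per1, chr11:69098748-69098823, plus strand: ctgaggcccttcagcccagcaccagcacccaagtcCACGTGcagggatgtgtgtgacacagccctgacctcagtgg
Bhlhe41, chr6:145865533-145865608, minus strand: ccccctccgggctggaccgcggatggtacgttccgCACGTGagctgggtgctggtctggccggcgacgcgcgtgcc
Ciart, chr3:95882232-95882307, minus strand: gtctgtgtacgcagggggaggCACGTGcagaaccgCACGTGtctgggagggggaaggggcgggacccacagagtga
Cry1 and Tef rose and Bhlhe41 fell between ZT4 and ZT16, and Per1 and Ciart were not called. The letters describe the sequence and no binding was measured.

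Against night-fed hearts, the clock contrast was smaller under day feeding. The median absolute difference over the 21 clock genes was 0.41 under DRF without ZT4 replicate 1 (0.61 with it) and 1.68 under NRF, 17 of the 21 were called under NRF, against 16.3% of all tested genes, and without ZT4 replicate 1, 20 of 21 genes had the larger absolute difference under NRF, Rora being the exception. With all 8 libraries Nr1d1 (-1.95), Nfil3 (0.66, against 0.34 under NRF) and, slightly, Bhlhe41 also had the larger absolute difference under DRF. The difference between regimens itself was called for 12 of the 21 in both fits, against 6.3% of all tested genes. Per2 changed by 3.54 under NRF, and the DRF difference was smaller (interaction -1.66 ± 0.34, adjusted p = 9.0e-04). Arntl changed by -2.34 under NRF (interaction 1.40 ± 0.29, adjusted p = 0.0012). The difference was also smaller under DRF for Tef (-1.33 ± 0.22), Hlf (-1.28 ± 0.21), Per3 (-1.47 ± 0.24) and Wee1 (-1.62 ± 0.23). Bhlhe41 rose by 0.64 under NRF where it fell under DRF (interaction -1.11 ± 0.18, adjusted p = 5.3e-05). Rora went the other way, with 0.19 under NRF (interaction 0.60 ± 0.14, adjusted p = 0.0036). For Nr1d1 the regimens gave like values, -1.68 and -1.83 (interaction 0.15 ± 0.38, 95% interval -0.61 to 0.92).

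A group of genes of insulin signalling and of the FOXO program rose at ZT16. Of 23 genes on this list, 8 rose in both fits and 0 fell, against 2.11% of all tested genes called higher in both fits. The same 8 held under both scalings, a check that a rise could hardly fail. The median of the list was 0.08, against -0.08 for all tested genes without ZT4 replicate 1. Klf15, a Krüppel-like factor that controls amino acid and lipid use during fasting, measured 17.998, 18.01 and 23.1 TPM in ZT4 replicates 2 to 4, 38.2 TPM in ZT4 replicate 1, and 76.6, 50.2, 52.5 and 50.8 TPM in the ZT16 libraries. The gene lies at chr6:90462576-90475238 on the plus strand. Its rise was 2.92-fold without ZT4 replicate 1, with a log2 difference of 1.49 ± 0.23 without ZT4 replicate 1 (adjusted p = 1.0e-05) and 1.25 ± 0.22 with it (adjusted p = 9.3e-05). Fbxo32, the muscle ubiquitin ligase atrogin-1 and a FOXO target, measured 17.1, 16.3 and 17.9 TPM in ZT4 replicates 2 to 4, 42.2 TPM in ZT4 replicate 1, and 48.9, 41.8, 43.1 and 39.1 TPM in the ZT16 libraries. ZT4 replicate 1 alone reached the ZT16 range, and the difference was 1.29 ± 0.20 without it and 0.97 ± 0.22 with it. Sesn1, a stress-induced inhibitor of mTORC1, measured 51.7, 53.96 and 50.9 TPM in ZT4 replicates 2 to 4, 62.7 TPM in ZT4 replicate 1, and 126, 112, 110.3 and 92.9 TPM in the ZT16 libraries, with no overlap in 8 libraries (1.06 ± 0.11, adjusted p = 3.5e-09).

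The other members that rose were Pik3ip1, an inhibitor of PI3-kinase, by 1.00 ± 0.17, Foxo3 by 0.74 ± 0.13, the PI3-kinase regulatory subunit gene Pik3r1 by 0.72 ± 0.14, the muscle ligase Trim63 (MuRF1) by 0.59 ± 0.13 and the insulin receptor substrate gene Irs2 by 0.84 ± 0.29. Irs2 was near the threshold (adjusted p = 0.043 and 0.018). Insr, Akt1, Akt2 and Foxo1 differed by 0.08, -0.04, -0.08 and -0.09, with no call. Of the 8 that rose, 4 were also higher under NRF (7.9% of all tested genes were), Irs2 (0.97), Pik3r1 (0.71), Foxo3 (0.63) and Sesn1 (0.40), and 1, Trim63, was lower. Under NRF Fbxo32 differed by -0.31 and Trim63 by -0.54 (adjusted p = 0.37 and 0.0024). The difference between regimens was called for both, at 1.59 ± 0.28 (adjusted p = 1.1e-04) and 1.13 ± 0.18 (adjusted p = 2.6e-05).

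Of 14 glucocorticoid-responsive genes 4 rose in both fits and 0 fell, against 2.11% and 10.8% of all tested genes, with a list median of 0.42 without ZT4 replicate 1. The median was 0.35 with 8 libraries and 0.20 without ZT16 replicate 1. Zbtb16, a zinc finger repressor gene, had the largest rise on the log2 scale of all genes named, 8.35-fold between means, from 3.28, 4.62 and 6.28 TPM in ZT4 replicates 2 to 4 (13.8 TPM in replicate 1) to 58.1, 32.6, 34.8 and 32.3 TPM at ZT16. The statistics of this gene, at chr9:48654297-48836222 on the minus strand, were a log2 difference of 2.81 ± 0.39 without ZT4 replicate 1 (adjusted p = 1.8e-06) and 2.46 ± 0.38 with it (adjusted p = 9.2e-06). Fkbp5, which encodes a co-chaperone of the glucocorticoid receptor, measured 3.06, 2.75 and 3.09 TPM in ZT4 replicates 2 to 4, 4.44 TPM in ZT4 replicate 1, and 20.5, 15.5, 7.94 and 10.1 TPM in the ZT16 libraries, and the groups did not overlap (1.79 ± 0.28, adjusted p = 1.5e-05). Tsc22d3 (GILZ) rose by 0.90 ± 0.22 and the metallothionein gene Mt1 by 0.52 ± 0.16. Sgk1 (-0.10 ± 0.19) and Dusp1 (-0.00 ± 0.23), also on the list, were not called. ZT16 replicate 1 was the highest library for Zbtb16, Fkbp5, Tsc22d3 and Klf15, and without it 3 of the 14 were called higher. Zbtb16 and Fkbp5 also rose under NRF, by 1.66 and 1.48, and the difference between regimens was called for neither (interaction 1.15 ± 0.53 and 0.31 ± 0.38).

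**Figure D2:**
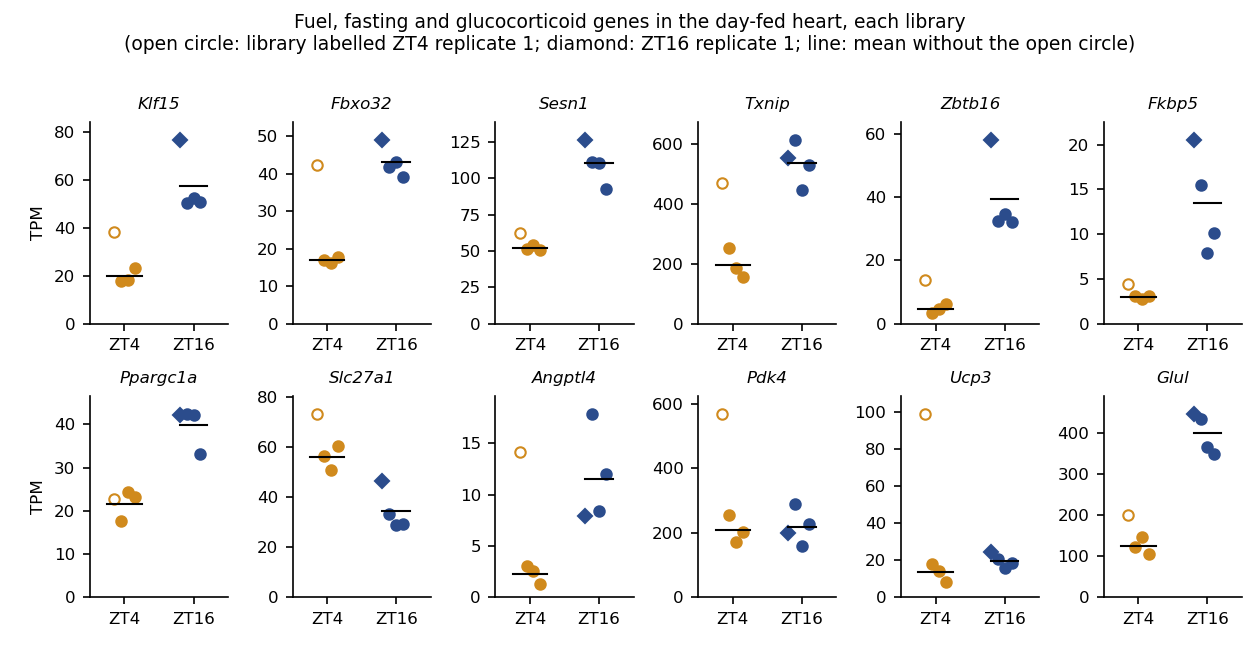
Level of 12 genes of fuel use, fasting and the glucocorticoid response in each library of the day-fed heart, in TPM, with symbols as in the plot of clock genes. ZT4 replicate 1 (open circle) lies in or near the ZT16 range for Fbxo32, Txnip and Angptl4 and far above both groups for Pdk4 and Ucp3.

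Among genes of glucose use, 4 of 28 rose and 1 fell, against 2.11% and 10.8% of all tested genes. With 8 libraries 5 were higher, and without either ZT16 replicate 1 or replicate 4 the number was 3. After median-of-ratios scaling 8 were higher with 8 libraries and 7 with 7, and 0 lower. Pfkfb2, a heart isoform of the enzyme that sets the level of a sugar phosphate activating glycolysis, measured 4.58, 8.56 and 5.87 TPM in ZT4 replicates 2 to 4, 8.31 TPM in ZT4 replicate 1, and 16.3, 14.7, 13.6 and 12.8 TPM in the ZT16 libraries (1.10 ± 0.19, adjusted p = 6.9e-05). Txnip, an inhibitor of glucose uptake, measured 250.5, 184 and 155 TPM in ZT4 replicates 2 to 4, 469.6 TPM in ZT4 replicate 1, and 551, 612, 445 and 529 TPM in the ZT16 libraries. It rose by 1.46 ± 0.31 without ZT4 replicate 1 and by 1.14 ± 0.30 with it, and under NRF it fell (-1.09, interaction 2.54 ± 0.42, adjusted p = 5.1e-05). Ppp1r3a, a glycogen-targeting subunit, rose by 0.41 ± 0.13 and Ldha, lactate dehydrogenase, by 0.23 ± 0.08. Pdp1, an activator of pyruvate dehydrogenase, fell (-0.26 ± 0.08) on the TPM scale alone (adjusted p = 0.17 after median-of-ratios scaling). Pdk4, the kinase that blocks pyruvate oxidation, measured 254, 171 and 201 TPM in ZT4 replicates 2 to 4, 568 TPM in ZT4 replicate 1, and 200.02, 289.6, 159 and 226 TPM in the ZT16 libraries and was not called (0.05 ± 0.48), against -2.45 under NRF (interaction 2.50 ± 0.65, adjusted p = 0.01). Its NRF ZT4 libraries spread widely, at 644 ± 566 TPM (SD, n = 4). At other times under DRF Pdk4 stood at 65.4 ± 18.2 TPM (ZT8) and 1279 ± 288 TPM (ZT20), a change that was not tested.

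Of 30 genes of lipid handling 3 rose and 4 fell, against 2.11% and 10.8% of all tested genes, and 1 of the 4 held under both scalings (6.63% of all). With 8 libraries 7 were lower, and without ZT16 replicate 4 the number was 2. After median-of-ratios scaling rises outnumbered falls, with 5 higher and 2 lower in 8 libraries and 6 and 2 in 7. Ppargc1a, the coactivator PGC-1α of mitochondrial genes, measured 17.6, 24.4 and 23.1 TPM in ZT4 replicates 2 to 4, 22.7 TPM in ZT4 replicate 1, and 42.2, 42.4, 42.1 and 33.1 TPM in the ZT16 libraries, with no overlap (0.86 ± 0.14, adjusted p = 2.7e-05). Lpin1 rose by 0.54 ± 0.12 and the lipid droplet coat gene Plin4 by 0.76 ± 0.15. Slc27a1, a fatty acid transporter, measured 56.2, 50.99 and 60.4 TPM in ZT4 replicates 2 to 4, 73.1 TPM in ZT4 replicate 1, and 46.3, 33.4, 28.8 and 29.2 TPM in the ZT16 libraries and fell in both fits and both scalings (-0.71 ± 0.15, adjusted p = 8.4e-04). Acot1, Acot2 and Acsl1 fell on the TPM scale (-0.88 ± 0.29, -0.65 ± 0.21 and -0.29 ± 0.10) and missed the threshold after median-of-ratios scaling without ZT4 replicate 1 (adjusted p = 0.063, 0.055 and 0.17). Acot1 and Acot2 are near-identical copies, so their reads may have been divided uncertainly. Angptl4, a fasting-induced inhibitor of lipoprotein lipase, measured 3.04, 2.59 and 1.28 TPM in ZT4 replicates 2 to 4, 14.2 TPM in ZT4 replicate 1, and 7.90, 17.9, 8.40 and 12.04 TPM in the ZT16 libraries. Without ZT4 replicate 1 it was higher by 1.90 ± 0.59 (adjusted p = 0.024), and with it the difference of 1.34 ± 0.58 was not called (adjusted p = 0.098).

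Calls among the enzymes of fatty acid oxidation depended on ZT16 replicate 1. Of 25 genes of beta-oxidation 0 rose and 1 fell in both fits, against 2.11% and 10.8% of all tested genes, namely Decr2, a peroxisomal reductase (-0.32 ± 0.09, adjusted p = 0.011), and the median of the list was -0.09, against -0.08 for all genes. With 8 libraries 2 of the 25 were lower (15.6% of all tested genes were), and without ZT16 replicate 1 the number was 7. Over all 13869 tested genes 2157 were lower with 8 libraries and 2247 without ZT16 replicate 1. The unadjusted p of the 6 genes of fatty acid oxidation that the study followed in heart, Acad11, Acox3, Cpt1a, Ehhadh, Lipe and Ucp3, which it chose on these samples, ranged from 0.11 to 0.6 without ZT4 replicate 1, and 0 of the 6 were called by limma in either fit. Without ZT16 replicate 1, 2 of the 6 were called lower, Acad11 (-0.26) and Acox3 (-0.28). Cpt1a, which admits fatty acids to mitochondria, measured 30.9, 27.5 and 23.6 TPM in ZT4 replicates 2 to 4, 54.6 TPM in ZT4 replicate 1, and 32.7, 30.1, 27.6 and 25.9 TPM in the ZT16 libraries. Ucp3, an uncoupling protein gene that rises with fatty acid supply, measured 18.1, 14.3 and 8.55 TPM in ZT4 replicates 2 to 4, 98.96 TPM in ZT4 replicate 1, and 24.4, 20.7, 15.8 and 18.6 TPM in the ZT16 libraries, and its difference was 0.55 without ZT4 replicate 1 and -0.16 with it. The contrast of ZT4 with ZT16 does not measure the range over the day. From ZT8 to ZT20 under DRF, means (n = 4) went from 8.34 to 22.5 TPM for Ehhadh and from 25.4 to 46.1 TPM for Cpt1a. They went from 15.04 to 26.1 TPM for Lipe and from 20.4 to 97.5 TPM for Ucp3. Acad11 (23.2 and 23.8 TPM) and Acox3 (5.25 and 5.27 TPM) differed little. These changes were not tested. Under NRF 4 of the 6 were lower at ZT16 than at ZT4, against 8.39% of all tested genes, Ucp3 (-1.94), Ehhadh (-0.81), Cpt1a (-0.61) and Lipe (-0.52). The difference between regimens was called for these 4 without DRF ZT4 replicate 1 (7.87% of all) and for 0 of the 6 with it (7.3%). Of 33 respiratory chain genes 2 rose, Atp5c1 by 0.22 ± 0.07 and Ndufb5 by 0.23 ± 0.08, against 2.11% of all tested genes, and without ZT16 replicate 4 the number was 0. After median-of-ratios scaling 6 were higher with 8 libraries and 3 with 7. Of 13 mitochondrially encoded genes 0 were called.

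**Figure D3:**
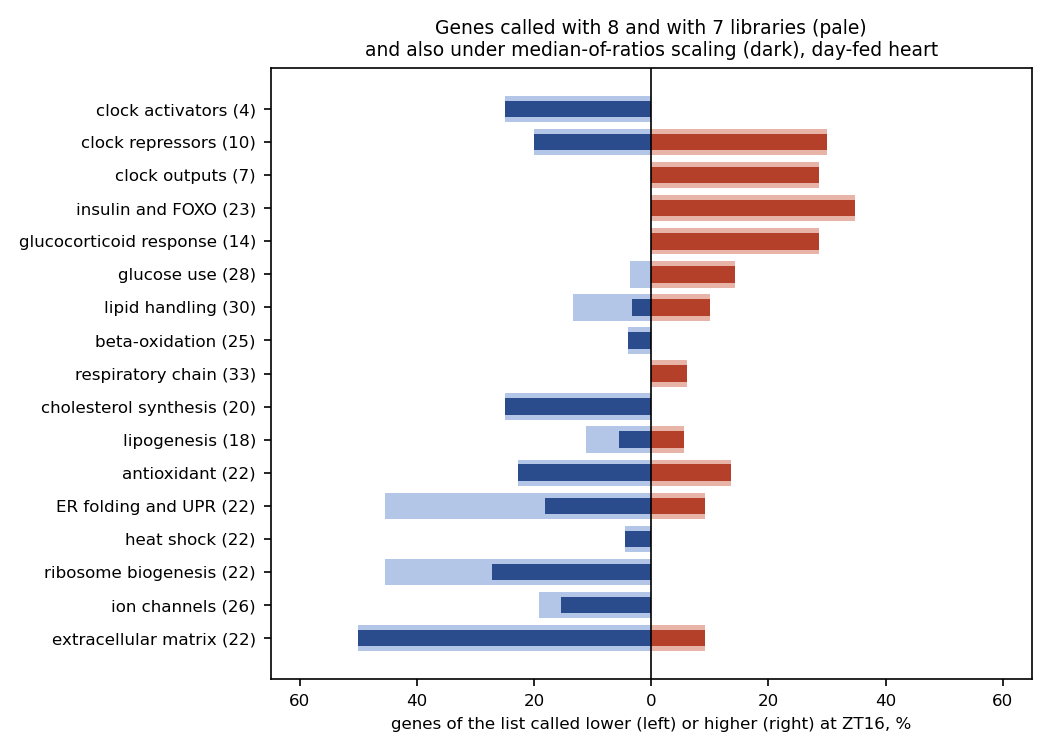
Share of each gene list that was called lower (left, blue) or higher (right, red) at ZT16 in the day-fed heart, with the number of tested genes in brackets. Pale bars are genes called with 8 and with 7 libraries, and dark bars those called under median-of-ratios scaling too. Median-of-ratios scaling moved differences upward, so a rise could hardly lose its call under it. The lower genes of ER folding went from 10 to 4 of 22 and those of ribosome biogenesis from 10 to 6 of 22.

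Several chaperone genes of the endoplasmic reticulum (ER) fell at ZT16. The ER folding and unfolded protein response list holds 22 genes, of which 10 fell and 2 rose in both fits, against 10.8% and 2.11% of all tested genes, and without ZT4 replicate 1 the number lower was 15. Under both scalings 4 fell, against 6.63% of all tested genes, namely Creld2, Pdia3, Pdia4 and Sel1l. The 10 lower with 8 libraries became 6 without ZT16 replicate 1 and 5 without ZT16 replicate 4. With the spread taken from the compared groups alone, 1 was lower with 8 libraries and 13 without ZT4 replicate 1. The unfolded protein response is the pathway by which ATF6, IRE1 and PERK raise folding capacity, and many of its target genes carry the ER stress element, CCAAT followed after 9 bases of any kind by CCACG. On either strand of the 250 bases before a start, it was found for 7 of the 19 listed genes with a RefSeq entry and for 0.130% of all genes. The stretches of 5 are shown, on the strand of the gene, because the element is what these genes share, and capitals mark the element or its reverse complement.
Creld2, chr15:88819485-88819573, plus strand: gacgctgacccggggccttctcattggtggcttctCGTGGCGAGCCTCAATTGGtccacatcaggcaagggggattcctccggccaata
Hspa5, chr2:34771990-34772078, plus strand: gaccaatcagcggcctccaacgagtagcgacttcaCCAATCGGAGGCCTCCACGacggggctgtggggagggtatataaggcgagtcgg
Calr, chr8:84847040-84847128, minus strand: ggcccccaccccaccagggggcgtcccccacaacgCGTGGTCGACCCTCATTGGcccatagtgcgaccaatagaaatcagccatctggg
Pdia6, chr12:17266456-17266544, plus strand: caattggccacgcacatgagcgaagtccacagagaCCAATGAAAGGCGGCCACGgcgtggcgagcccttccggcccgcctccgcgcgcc
Dnajc3, chr14:118937792-118937880, plus strand: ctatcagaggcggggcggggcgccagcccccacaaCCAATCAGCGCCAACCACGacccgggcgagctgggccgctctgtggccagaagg
The other 2 with the element were Hsp90b1 and Canx.

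Creld2, an ER-resident chaperone-like gene, measured 52.5, 36.5 and 45.7 TPM in ZT4 replicates 2 to 4, 20.6 TPM in ZT4 replicate 1, and 19.5, 22.4, 26.5 and 21.7 TPM in the ZT16 libraries, with a log2 difference of -0.96 ± 0.17 without ZT4 replicate 1 (adjusted p = 1.2e-04) and -0.69 ± 0.19 with it (adjusted p = 0.0076). Hspa5, the master ER chaperone BiP, measured 328, 294 and 399 TPM in ZT4 replicates 2 to 4, 231 TPM in ZT4 replicate 1, and 232, 243, 229 and 208 TPM in the ZT16 libraries and fell (-0.57 ± 0.16, adjusted p = 0.012). After median-of-ratios scaling Hspa5 was called without ZT4 replicate 1 (adjusted p = 0.038) and not with it (0.16). For Creld2 and Hspa5, ZT4 replicate 1 sat with the ZT16 libraries. Calr, Pdia6 and Dnajc3 were lower without ZT4 replicate 1 (-0.36 ± 0.12, -0.40 ± 0.12 and -0.41 ± 0.10) and were not called with it, while Hsp90b1 (-0.28 ± 0.15) and Canx (-0.12 ± 0.07) were called in neither fit. Of the genes without the element in this window or without an entry, Pdia4 fell (-0.80 ± 0.14), and Sdf2l1, Manf and Hyou1 fell (-1.10 ± 0.24, -1.02 ± 0.20 and -0.77 ± 0.15). These 3 were called after median-of-ratios scaling without ZT4 replicate 1 and not with it (adjusted p = 0.09, 0.056 and 0.06). The 2 genes that rose were Herpud1, a component of ER-associated degradation, from 134, 121 and 135 TPM in ZT4 replicates 2 to 4 to 318, 263, 219.7 and 206 TPM (0.93 ± 0.14), and the sensor gene Atf6 (0.57 ± 0.10). Under NRF 0 of the 22 were lower and 4 higher, against 8.39% and 7.9% of all tested genes, and the difference between regimens was called in both fits for 3 of the 22 (6.3% of all).

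Of 22 genes of ribosome biogenesis 10 fell in both fits and 0 rose, against 10.8% and 2.11% of all tested genes, and 6 of the 10 held under both scalings (6.63% of all). Nolc1, a nucleolar coiled-body protein gene, measured 18.3, 18.1 and 17.8 TPM in ZT4 replicates 2 to 4, 13.8 TPM in ZT4 replicate 1, and 12.7, 12.6, 11.8 and 10.7 TPM in the ZT16 libraries (-0.56 ± 0.11, adjusted p = 2.7e-04). Polr1a, the largest subunit of RNA polymerase I, fell (-0.47 ± 0.10), Rrp12 (-0.50 ± 0.13) and Nop2 (-0.42 ± 0.11). Nop2 lost its call after median-of-ratios scaling with 8 libraries (adjusted p = 0.073). The list median was -0.22, against -0.08 for all genes. Of 20 aminoacyl-tRNA synthetases 1 fell, against 10.8% of all tested genes, Farsa (-0.23 ± 0.08), with no call without ZT16 replicate 4. After median-of-ratios scaling the direction of the list turned, with 3 of the 20 called higher and 0 lower with 8 and with 7 libraries. Among 15 genes of amino acid supply 1 rose and 1 fell, against 2.11% and 10.8% of all tested genes. Chac1, which degrades glutathione and is a target of ATF4, rose from 1.12, 1.08 and 0.996 TPM in ZT4 replicates 2 to 4 (5.83 TPM in replicate 1) to 9.82, 3.94, 6.07 and 4.77 TPM (1.73 ± 0.29), and Aldh18a1, an enzyme of proline synthesis, fell (-0.47 ± 0.13).

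Of 22 genes of the extracellular matrix 11 fell and 2 rose, all 13 under both scalings, against 6.63% and 2.11% of all tested genes, with a list median of -0.57. Col5a3, a fibrillar collagen chain gene, measured 16.8, 22.1 and 16.5 TPM in ZT4 replicates 2 to 4, 17.6 TPM in ZT4 replicate 1, and 5.58, 4.86, 4.15 and 3.93 TPM in the ZT16 libraries, 3.99-fold lower at ZT16 and without overlap (-1.79 ± 0.18, adjusted p = 3.5e-09). Spon2, a secreted matrix protein gene, measured 29.5, 20.7 and 17.2 TPM in ZT4 replicates 2 to 4, 5.46 TPM in ZT4 replicate 1, and 1.68, 3.12, 4.86 and 3.47 TPM in the ZT16 libraries, the largest fall of the genes named (-2.47 ± 0.37, adjusted p = 6.8e-06). Col3a1 fell (-1.17 ± 0.27), Col1a1 (-1.06 ± 0.22), the basement membrane chains Col4a1 and Col4a2 (-0.93 ± 0.22 and -0.90 ± 0.20), and Col15a1 (-0.93 ± 0.22). The 2 that rose were Angptl7, from 13.3, 13.3 and 4.98 TPM in ZT4 replicates 2 to 4 to 43.8, 49.5, 50.5 and 57.5 TPM (2.26 ± 0.32), and the metalloproteinase inhibitor Timp3 (0.58 ± 0.14). Under NRF the list had 11 lower and 2 higher genes, against 8.39% and 7.9% of all tested genes, and the difference between regimens was called for 0 of the 22 in both fits (limma, 0 at an unadjusted p under 0.05 without DRF ZT4 replicate 1).

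Markers of cell types bear on such lists, since in bulk tissue fewer cells of a type and less RNA per cell cannot be told apart. Cardiomyocyte markers were abundant, with a summed level of 33203 to 42497 TPM at ZT4 and 38669.9 to 40703 TPM at ZT16, and 0 of 11 were called in both fits. With 8 libraries 1 was higher (2.77% of all tested genes). After median-of-ratios scaling 2 were higher with 8 and with 7 libraries (7.64% and 6.79% of all). Of 7 fibroblast markers 1, Col1a1, fell, and the sum ranged from 691 to 1194 TPM at ZT4 and from 799 to 948 TPM at ZT16. The fibroblast genes Pdgfra and Dcn differed by -0.08 ± 0.08 and 0.03 ± 0.11, with no call. Without ZT4 replicate 1, 5 of the 7 fibroblast markers had negative differences and 2 positive. Their median was -0.14, against -0.08 for all tested genes. Of 7 endothelial markers Kdr (-0.54 ± 0.12) and Tek (-0.38 ± 0.11) fell, although Tek lost its call after median-of-ratios scaling with 8 libraries (adjusted p = 0.13), and without ZT16 replicate 1 the number called was 0. The endothelial sum was 659.8, 739, 714 and 594 TPM at ZT4 and 541, 603, 583 and 539 TPM at ZT16 (exact permutation p = 0.057). The mural sum was 893, 811, 925 and 785 TPM at ZT4 and 717, 684, 732 and 681 TPM at ZT16 and did not overlap (exact permutation p = 0.029, the smallest that 4 against 4 allow, and 0.43 after adjustment over 15 measures). Of 8 mural markers 2, Pdgfrb and Kcnj8, were called lower with 8 libraries, and 0 without ZT4 replicate 1. In those 7 libraries all 7 endothelial markers had negative differences (median -0.28). The same held for 7 of the 8 mural markers, with 1 positive (median -0.19). The part of these cells in the lower matrix genes was not tested. Atrial markers ranged from 292 to 5035 TPM among the ZT4 libraries and from 660.5 to 2099 TPM at ZT16, and the haemoglobin and other erythroid genes summed to 66737 TPM in ZT4 replicate 2 and 46804 TPM in ZT16 replicate 3, against 1890.1 to 13791 TPM in the other 6. Of the 6 atrial, 5 erythroid, 8 macrophage, 3 lymphocyte, 6 adipocyte and 3 Schwann cell markers tested, 0 were called in either fit.

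Of 26 ion channel genes 5 fell and 0 rose, against 10.8% and 2.11% of all tested genes, and 4 of the 5 held under both scalings (6.63% of all). After median-of-ratios scaling with 8 libraries 1 channel gene was called higher, and without ZT16 replicate 1 the number lower on the TPM scale was 9, against 6 with 8 libraries. Kcnh2, which encodes the hERG potassium channel of cardiac repolarization, measured 52.2, 48.02 and 50.98 TPM in ZT4 replicates 2 to 4, 57.3 TPM in ZT4 replicate 1, and 42.99, 24.1, 25.2 and 27.6 TPM in the ZT16 libraries. The ZT16 libraries all lay below ZT4, with a log2 difference of -0.77 ± 0.13 without ZT4 replicate 1 (adjusted p = 8.0e-05) and -0.81 ± 0.12 with it (adjusted p = 8.3e-06). Kcnj5, a subunit of the acetylcholine-gated potassium channel, measured 58.99, 54.03 and 64.4 TPM in ZT4 replicates 2 to 4, 43.8 TPM in ZT4 replicate 1, and 38.3, 31.5, 32.8 and 35.3 TPM in the ZT16 libraries (-0.76 ± 0.11, adjusted p = 8.1e-06). Kcnj11, of the ATP-sensitive channel, fell (-0.39 ± 0.08), the sodium channel subunit gene Scn4b (-0.71 ± 0.21) and the pacemaker channel gene Hcn4, on the TPM scale alone, (-0.44 ± 0.15). Kcnh2 and Kcnj5 were higher at ZT16 under NRF, by 0.37 and 0.42 (adjusted p = 0.035 and 0.006). The regimens differed in both, at -1.14 ± 0.18 (adjusted p = 4.2e-05) and -1.19 ± 0.16 (adjusted p = 1.5e-06), and in 10 of the 26 genes in both fits, against 6.3% of all tested genes.

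Of 22 antioxidant and NAD genes 3 rose and 5 fell, all 8 under both scalings, against 2.11% and 6.63% of all tested genes. Gsta3, a glutathione transferase, measured 8.84, 5.42 and 7.00 TPM in ZT4 replicates 2 to 4, 3.82 TPM in ZT4 replicate 1, and 17.2, 20.9, 21.8 and 23.8 TPM in the ZT16 libraries, with no overlap (1.45 ± 0.15, adjusted p = 3.5e-09), and the NAD salvage gene Nampt rose by 0.69 ± 0.11. Sirt1 rose by 0.35 ± 0.08. Srxn1, Gclm, Txnrd1 and Nqo1 fell (-0.70 ± 0.09, -0.51 ± 0.10, -0.44 ± 0.08 and -0.38 ± 0.10), and the catalase gene Cat fell (-0.39 ± 0.09). Srxn1 measured 28.1, 27.5 and 25.7 TPM in ZT4 replicates 2 to 4, 19.5 TPM in ZT4 replicate 1, and 17.2, 16.9, 15.5 and 15.6 TPM in the ZT16 libraries. The 3 genes that rose were also higher under NRF, Gsta3 by 1.77, Nampt by 0.71 and Sirt1 by 0.22, while of the 5 that fell 0 were called lower there and 1, Gclm, was called higher. Under NRF Srxn1 and Gclm differed by 0.24 and 0.44 (interaction -0.94 ± 0.12 and -0.95 ± 0.14, adjusted p = 1.5e-06 and 8.4e-06).

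In sterol synthesis 5 of 20 genes fell and 0 rose, all 5 under both scalings, against 6.63% of all tested genes. Sqle, which encodes squalene epoxidase, measured 1.68, 1.46 and 1.42 TPM in ZT4 replicates 2 to 4, 1.25 TPM in ZT4 replicate 1, and 0.781, 0.944, 0.663 and 0.744 TPM in the ZT16 libraries (-0.50 ± 0.12, adjusted p = 0.0033). Idi1 fell (-0.45 ± 0.09), Hmgcs1 (-0.44 ± 0.08) and Dhcr7 (-0.43 ± 0.10). Under NRF 13 of the 20 were lower and 1 higher, against 8.39% and 7.9% of all tested genes, and the difference between regimens was called in both fits for 2 of the 20 (6.3% of all). Of 18 lipogenic genes Acsl3 rose (0.30 ± 0.10) and Scd4 (-1.63 ± 0.34) and Elovl5 (-0.34 ± 0.12) fell, against 2.11% and 10.8% of all tested genes, and Elovl5 lost its call after median-of-ratios scaling with 8 libraries (adjusted p = 0.11). Acsl3 and Elovl5 were near the threshold, and both lost their calls without ZT16 replicate 1. Scd4 is one of a family of similar desaturase genes, so its reads may be shared with them. Of 22 heat shock and other temperature-responsive genes 1 fell, the cold-inducible RNA-binding protein gene Cirbp (-0.77 ± 0.19), against 10.8% of all tested genes. Of 26 autophagy genes 1 rose, Atg14 (0.41 ± 0.09), against 2.11% of all, and after median-of-ratios scaling 4 were higher with 8 libraries and 3 with 7. Immediate-early genes (20 tested), genes of branched-chain amino acid breakdown (17) and proliferation genes (20) had 0 calls in both fits, with list medians of 0.12, 0.05 and -0.27.

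The largest rises included genes outside these lists. Shld1, a subunit of the shieldin DNA repair complex, measured 11.8, 12.02 and 8.10 TPM in ZT4 replicates 2 to 4, 14.8 TPM in ZT4 replicate 1, and 37.4, 36.9, 39.2 and 38.6 TPM in the ZT16 libraries (1.76 ± 0.22). Glul, glutamine synthetase, measured 123, 146 and 105 TPM in ZT4 replicates 2 to 4, 201 TPM in ZT4 replicate 1, and 445, 432, 366 and 349 TPM in the ZT16 libraries, 3.19-fold higher without ZT4 replicate 1 (1.67 ± 0.16, adjusted p = 2.6e-09). Fmo2, a flavin monooxygenase, stood at 68.8, 68.1, 69.4 and 67.01 TPM at ZT16 and at 33.4, 15.6 and 16.98 TPM in ZT4 replicates 2 to 4 (1.67 ± 0.22). In these genes every ZT16 library exceeded every ZT4 library. Fam107a, a stress-responsive actin-binding protein gene, rose by 1.73 ± 0.24 and the muscle gene Klhl38 by 1.67 ± 0.27, where ZT4 replicate 1 (12.9 TPM) stood in the ZT16 range of 15.03, 9.72, 10.7 and 11.98 TPM.

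Among the largest falls, Cited4, a CBP/p300-interacting coactivator gene linked to growth of the trained heart, measured 95.1, 89.1 and 106 TPM in ZT4 replicates 2 to 4, 36.8 TPM in ZT4 replicate 1, and 29.5, 31.5, 29.04 and 29.8 TPM in the ZT16 libraries (-1.66 ± 0.23, adjusted p = 1.9e-06). Cx3cr1, the fractalkine receptor of macrophages and monocytes, measured 9.28, 8.45 and 6.84 TPM in ZT4 replicates 2 to 4, 7.31 TPM in ZT4 replicate 1, and 1.64, 2.16, 1.91 and 1.52 TPM in the ZT16 libraries and did not overlap (-1.71 ± 0.19, adjusted p = 3.2e-08), while 0 of 8 macrophage markers were called and their sum was 919, 1353, 1092 and 842 TPM at ZT4 and 1016, 1172, 1171 and 1136 TPM at ZT16. Ccdc69 fell (-1.42 ± 0.21). Sftpc, the surfactant protein C gene of the lung alveolus, measured 4.06, 3.29 and 2.61 TPM in ZT4 replicates 2 to 4, 1.27 TPM in ZT4 replicate 1, and 1.22, 0, 0.0556 and 0 TPM in the ZT16 libraries (-1.79 ± 0.50). Of the 4 ZT16 libraries 2 were at 0. A pair of short RNA genes in the annotation, Gm22009 (-1.92 ± 0.47) and Mir7031 (-1.75 ± 0.58), also passed the rule, and since polyA libraries hold few mature short RNAs and reads of an overlapping gene could be counted there, their values are uncertain.

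The time course places the contrast within the day. Under DRF Per2 peaked at ZT12 with 19.7 ± 5.08 TPM (SD, n = 4) and stood at 14.4 ± 4.04 TPM at ZT16. Zbtb16 had 36.3 ± 9.48 TPM at ZT12 and 39.5 ± 12.5 TPM at ZT16. Klf15 was highest at ZT16 with 57.5 ± 12.8 TPM, against 37.9 ± 5.55 TPM at ZT12. Creld2 had its highest DRF mean at ZT4, with 38.8 ± 13.8 TPM (44.9 ± 8.03 TPM, n = 3, without replicate 1), against 17.6 ± 1.81 TPM at ZT0 and 22.4 ± 1.63 TPM at ZT8. Srxn1 was likewise at its DRF maximum at ZT4 and its minimum at ZT16. For Col5a3 the low phase under DRF ran from ZT8 to ZT20, and its lowest mean was 3.73 ± 0.995 TPM at ZT12.

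**Figure D4:**
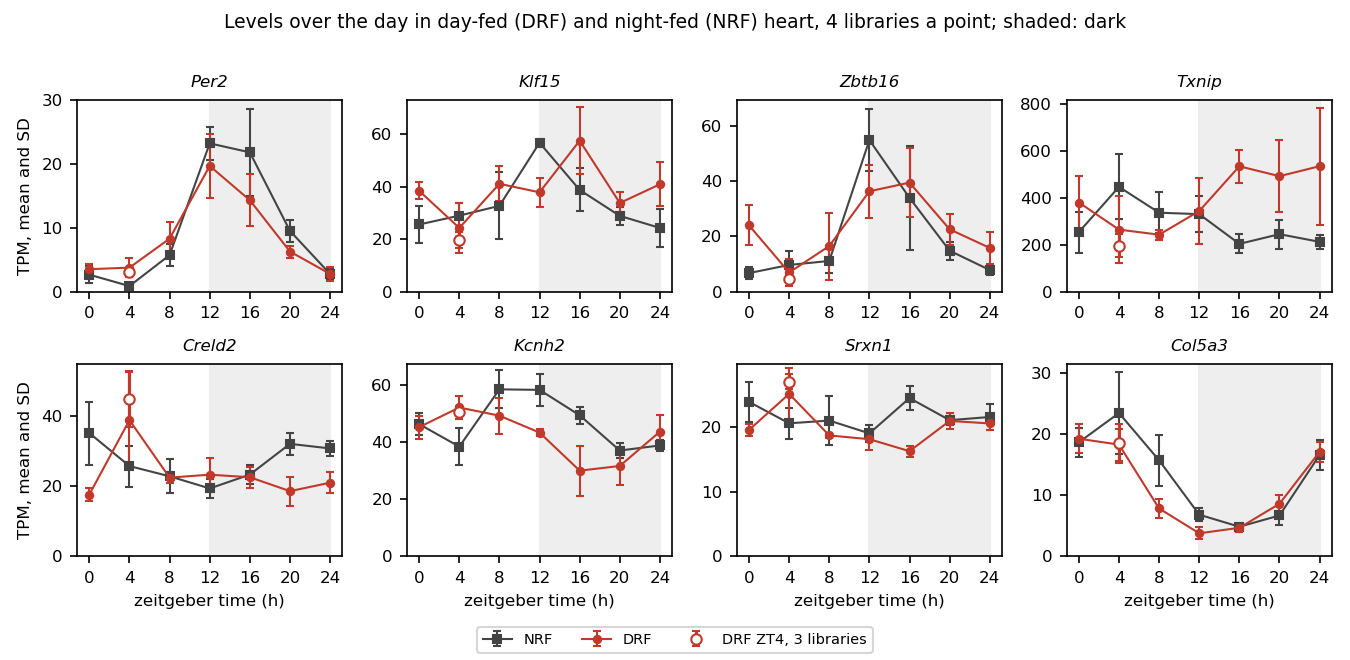
Mean level and SD of 8 genes at 7 zeitgeber times under DRF (red circles) and NRF (grey squares), in TPM, 4 libraries a point, with the dark phase shaded. The open red circle is DRF ZT4 without the library labelled replicate 1 (n = 3), and the contrast of ZT16 with ZT4 is opposite in the regimens for Txnip and Kcnh2 and of one direction for Per2 and Col5a3.

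Whether the change from ZT4 to ZT16 depended on feeding time was tested as the difference between regimens. It was called for 1013 genes with 16 libraries (7.3%) and 1092 without DRF ZT4 replicate 1 (7.87%), with 874 in both fits (6.3%), of which 671 (4.84%) held under median-of-ratios scaling too. The NRF comparison itself called 2260 genes (16.3%). Of the 292 genes that rose under DRF under both scalings, 133 were also called higher under NRF (of 1096 there) and 13 were called lower. Of the 919 that fell, 287 were also lower under NRF (of 1164) and 36 were higher. The largest positive interactions called in both fits were those of Angptl4 (4.80 ± 0.81, adjusted p = 7.2e-05), Txnip, Pdk4, Slc41a3 (2.26 ± 0.23) and Chac1 (2.26 ± 0.39). Angptl4 differed by 1.90 under DRF without ZT4 replicate 1 and fell by 2.90 on the log2 scale under NRF, whereas Slc41a3, a magnesium transporter gene, fell under NRF (-2.61) and differed by -0.35 under DRF. The largest negative ones called in both fits were those of Gm45819 (-2.55 ± 0.35), Rtn4r (-2.30 ± 0.44), Ppp1r3b (-2.28 ± 0.35), Dbp (-2.04 ± 0.56) and Cited4 (-1.99 ± 0.31). Ppp1r3b, a glycogen-targeting phosphatase subunit gene, rose by 1.62 under NRF and measured 16.6, 21.2 and 21.3 TPM in ZT4 replicates 2 to 4, 8.83 TPM in ZT4 replicate 1, and 12.1, 15.2, 11.7 and 9.54 TPM in the ZT16 libraries under DRF, with no call (-0.67 ± 0.26).

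**Figure D5:**
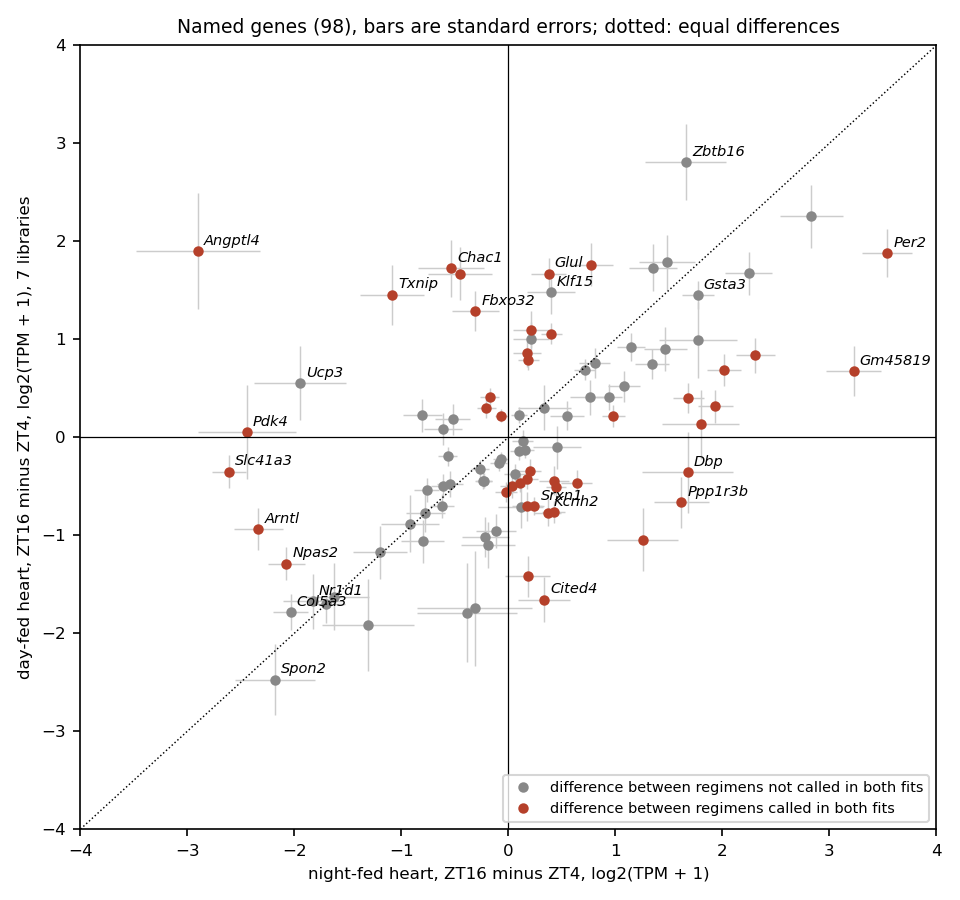
Difference between ZT16 and ZT4 in the day-fed heart (vertical axis, 7 libraries) against that in the night-fed heart (horizontal axis, 8 libraries) for the 98 named genes, both on the log2(TPM + 1) scale with standard errors. Red points are genes whose difference between regimens was called with and without DRF ZT4 replicate 1, and the dotted line marks equal differences. Angptl4, Txnip and Chac1 lie above the line at upper left, Spon2, Col5a3 and Nr1d1 near it, and Dbp and Ppp1r3b below it at lower right.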

How the data were processed

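PolyA RNA from mouse heart was sequenced by the study as paired reads. Per the labels, alignment used HISAT2 2.0.5 to mm10 and counting used featureCounts 1.5.0-p3, and strand settings are not given in the sources used here, so overlapping genes cannot be told apart. The authors named the deposited values TPM, but each is another quantity, a library constant multiplied by log2(1 + depth-scaled reads) and divided by gene length. Whole reads were recovered for the 22864 listed genes with exon lengths of GENCODE M21. The annotated length served for 22001 genes, and for 853 a length was searched, 817 of them on chromosomes 17 to 19. All 1279572 values under 200000 reads came within 0.1 read of a whole number, and 10 genes were too abundant to test. Linear TPM was recomputed, and the 13869 genes averaging 1 TPM or more across 56 libraries were tested on log2(TPM + 1).

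limma 3.58.1 (R 4.3.3, eBayes with trend) was fitted to 14 group means in 56 libraries, which share one estimate of the spread, with Benjamini-Hochberg adjustment. The fit was tested on simulated reads with known changes. Single measures were compared by exact two-sided permutation, for which 4 against 4 cannot go below 0.029 and 4 against 3 not below 0.057. Alternatives covered the pseudocount, filter, scaling, samples in the fit, deposited scale, replicate block and single libraries left out. Named genes were all clock genes and the 6 fatty acid oxidation genes of the study, the 10 largest rises and falls called in both fits without overlap in 7 libraries, up to 4 from each list, and the 5 largest interactions each way. Other genes of a list are named where a list is described, and some genes are not reported here. The comparison, lists and rules were chosen with earlier results of these data known. Same-numbered libraries of DRF ZT16 and ZT4 had deviations correlated at 0.30, -0.10, -0.03 and 0.04, so the numbers were not taken to pair them.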

Additional observations from a re-analysis of the deposited data

Results flagged for a closer look

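Among the named genes and library measures, a library was singled out where its distance to the nearest of the other 3 of its group, over the group's range, passed Dixon's 95% limit, which chance passes in about 1 in 20 groups. For the library labelled DRF ZT4 replicate 1, whose label the data go against, these were Angptl4 (14.2 TPM), Bhlhe41 (12.4 TPM), Chac1 (5.83 TPM), Ciart (7.54 TPM), Fbxo32 (42.2 TPM), Klhl38 (12.9 TPM), Nolc1 (13.8 TPM), Nop2 (14.8 TPM), Npas2 (1.34 TPM), Nr1d2 (64.2 TPM), Plin4 (63.1 TPM) and Ucp3 (98.96 TPM). ZT16 replicate 1 was singled out for Bhlhe41 (6.00 TPM), Ciart (6.07 TPM), Dbp (55.3 TPM), Fam107a (17.1 TPM), Farsa (9.48 TPM), Klf15 (76.6 TPM), Per1 (29.99 TPM), Pik3ip1 (40.3 TPM), Sftpc (1.22 TPM) and Zbtb16 (58.1 TPM). The others were Angptl7 (4.98 TPM) in ZT4 replicate 4, Arntl (3.87 TPM) in ZT16 replicate 2, Herpud1 (121 TPM) in ZT4 replicate 3, Ndufb5 (179 TPM) in ZT16 replicate 4 and Ppargc1a (33.1 TPM) in ZT16 replicate 4. In the marker sums, erythroid genes stood apart in ZT4 replicate 2 (66737 TPM) and adipocyte genes in ZT16 replicate 2 (221 TPM).

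The difference between regimens in the ZT16 to ZT4 change was called for 1013 genes with 16 libraries and 1092 with 15. Without DRF ZT4 replicate 1 the interactions of the genes named for it were 4.80 for Angptl4, 2.26 for Chac1, -1.99 for Cited4, -2.04 for Dbp, -2.55 for Gm45819, 2.50 for Pdk4, -2.28 for Ppp1r3b, -2.30 for Rtn4r, 2.26 for Slc41a3 and 2.54 for Txnip, on the log2 scale.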

How the results depend on the processing

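Counts stayed within 1.5 times of the reported ones under a pseudocount of 0.1, no filter, a filter of at least 5 TPM, the replicate block and, for the DRF contrast, the 28 DRF libraries alone (2426 genes in all with 8 libraries). Estimating the spread from the compared groups alone lowered all counts. Counts were 1005 in all (from 2541), 152 higher (from 384) and 853 lower (from 2157) for the DRF contrast, 965 in all (from 2039), 201 higher (from 372) and 764 lower (from 1667) for the DRF contrast without DRF ZT4 replicate 1, 459 in all (from 1013), 64 higher (from 148) and 395 lower (from 865) for the regimen difference, 717 in all (from 1092), 147 higher (from 230) and 570 lower (from 862) for the regimen difference without DRF ZT4 replicate 1. Median-of-ratios scaling moved the direction of calls. Counts were 1059 higher (from 384) and 1192 lower (from 2157) for the DRF contrast, 942 higher (from 372) for the DRF contrast without DRF ZT4 replicate 1, 450 higher (from 148) for the regimen difference, 611 higher (from 230) for the regimen difference without DRF ZT4 replicate 1. Fitting the deposited scale did likewise. Counts were 1115 higher (from 384) and 1164 lower (from 2157) for the DRF contrast, 1016 higher (from 372) for the DRF contrast without DRF ZT4 replicate 1, 488 higher (from 148) for the regimen difference, 655 higher (from 230) for the regimen difference without DRF ZT4 replicate 1. A limma voom fit of the recovered reads, chosen after seeing the data, also did. Counts were 1061 higher (from 384) and 1187 lower (from 2157) for the DRF contrast, 930 higher (from 372) for the DRF contrast without DRF ZT4 replicate 1, 443 higher (from 148) for the regimen difference, 602 higher (from 230) for the regimen difference without DRF ZT4 replicate 1. The cause was not tested.

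At the level of single libraries, leaving out 1 at a time gave 1436 to 3005 genes in all, 277 to 372 higher and 1117 to 2666 lower for the DRF contrast, 1126 to 2380 genes in all, 285 to 369 higher and 839 to 2058 lower for the DRF contrast without DRF ZT4 replicate 1, 605 to 1305 genes in all, 106 to 230 higher and 489 to 1187 lower for the regimen difference, and 736 to 1324 genes in all, 166 to 298 higher and 549 to 1149 lower for the regimen difference without DRF ZT4 replicate 1. DRF ZT16 replicate 4 (1436 genes without it), DRF ZT4 replicate 3 (1693) and, once ZT4 replicate 1 was out, DRF ZT4 replicates 2 (1218) and 3 (1126) each moved the number of DRF calls by over 1.5 times. The same held in the regimen difference for DRF ZT16 replicate 4 (605 genes without it), and the number lower was 553 without NRF ZT4 replicate 1 and 568 without DRF ZT4 replicate 3 (549 once ZT4 replicate 1 was out). For the DRF contrast without ZT4 replicate 1, the number lower was 991 without ZT16 replicate 4. Leaving out DRF ZT4 replicate 1 gave the 230 higher in the regimen difference. Of 77 named genes called with 8 libraries, 73 were still called without ZT4 replicate 1, 52 with the compared groups alone and 67 after median-of-ratios scaling, and 0 reversed in any setting. The signs that turned were of uncalled genes, namely Ciart 0.13 (without DRF ZT4 replicate 1), Cpt1a 0.087 (without DRF ZT4 replicate 1), Ehhadh 0.076 (deposited scale), 0.069 (voom), 0.068 (median-of-ratios) and 0.22 (without DRF ZT4 replicate 1), Lipe 0.12 (deposited scale), 0.11 (voom), 0.11 (median-of-ratios), 0.00067 (pseudocount 0.1), 0.082 (without DRF ZT16 replicate 3), 0.045 (without DRF ZT16 replicate 4), 0.18 (without DRF ZT4 replicate 1) and 0.022 (without DRF ZT4 replicate 2), Pdk4 0.053 (without DRF ZT4 replicate 1), Ucp3 0.55 (without DRF ZT4 replicate 1). Over the libraries left out singly, their values ran from -0.75 to 0.13 for Ciart, -0.30 to 0.087 for Cpt1a, -0.20 to 0.22 for Ehhadh, -0.11 to 0.18 for Lipe, -0.52 to 0.053 for Pdk4, -0.58 to 0.55 for Ucp3. The count-model alternatives that had been planned were not run, although whole reads were recovered, and the voom fit of recovered reads is the only one on reads. Numbers of replicates did not pair the libraries, and the block changed the DRF count from 2541 to 2555 with 8 libraries.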
